A study of Homo sapiens with 6 samples.

Results

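The experiment used HaCaT, a human keratinocyte line that has become immortal in culture. The cells were grown in medium without serum or calcium and then left for 6 h either untreated or exposed to 5 µg/ml of M1, the surface protein of Streptococcus pyogenes that is known as a virulence factor. RNA of 3 control and 3 M1 samples, all of the same line and medium and named biological replicates in the labels, was hybridised to Affymetrix Human 2.0 ST arrays. The measurements describe 1 cultured line and a single time. The genes described here are 8 genes of small GTPase and actin signalling, GEM, ARL14, RIT1, RASSF5, RHPN2, RAPH1, ABI1 and ABL2, taken by gene symbol from the authors' deposited table. That table names 495 genes on 497 probe sets, of the 22119 probe sets measured.

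The authors had selected their table for differences between control and M1 samples, so the values below describe that choice. No measure independent of that choice was at hand, so no p is given for a member and the count of members past the limma test is only a description. The sources used here do not tell whether the cultures were independent, and the SD and SE values cover the spread between these samples only. Each value is a log2 RMA signal, in which 1 unit is a doubling of the normalised brightness of a gene's probes. A difference is the mean of the M1 samples minus the mean of the control samples on that scale, and its SE comes from a limma fit across all probe sets. RNA came from whole cultures, so a share of cells with more of a transcript and more of it in every cell cannot be told apart. Signals of different genes depend on their probes, so only differences are set side by side between genes.

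Small GTPases are molecular switches that are active when bound to GTP and inactive when bound to GDP. Ras and Rap members relay signals from receptors and integrins, Arf and Arl members act in vesicle traffic, and Rac and Cdc42 members control actin. In keratinocytes, actin assembly at the front edge of the cell drives the migration that closes wounds. There, Rac acts through the WAVE complex on the Arp complex that branches actin, Ena/VASP proteins lengthen filaments, and Abl family kinases phosphorylate parts of the same machinery.

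All 8 genes were higher with M1 protein, from 1.67-fold for RIT1 and ABI1 to 10.6-fold for GEM. The median difference of the 8 was 1.37 on the log2 scale, beside 0.0032 over all probe sets and 1.27 over the 303 probe sets of the authors' table that were higher. All 8 passed an adjusted p of 0.05 in the limma fit, where 11.6% of all probe sets passed in that direction and 32.8% in either. The M1 samples lay above every control sample in 8 of 8 genes, and in 18.6% of all probe sets. Since the choice of the genes used this same contrast, nothing is read from either count. The split of calls over all probe sets, 2555 higher and 4690 lower, moved with the scaling: median centring of the arrays gave 3578 higher against 3670 lower, and quantile normalization gave 3026 against 4035.

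**Figure D1:**
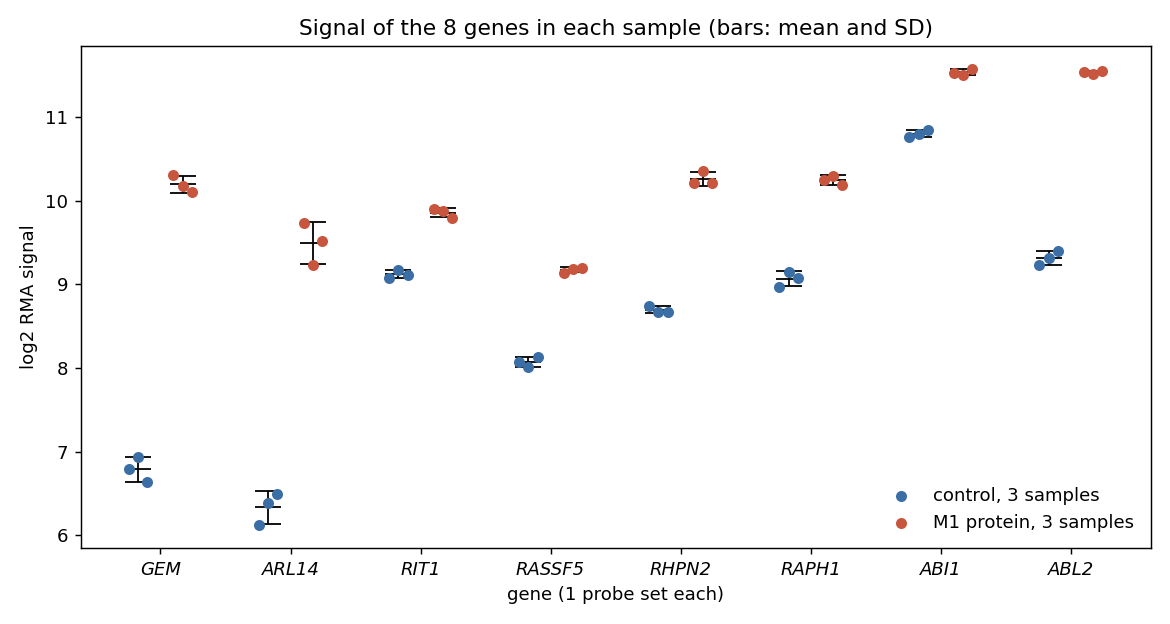
Log2 RMA signal of each gene in the 3 control samples (blue) and the 3 M1 samples (red), with bars for the mean and SD of each group. In each gene the red points lie above the blue points; heights are not comparable between genes, since each has its own probes.

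The DNA at the start sites of 6 of the 8 genes was searched for sites of stimulus-responsive factors. GEM and ARL14 had no promoter in the source used and were not searched. RefSeq (GRCh38.p14) gave 8 promoters for 6 of the genes (RIT1, ABL2, RASSF5, RAPH1, ABI1 and RHPN2), each 250 bases before to 50 after a start. RIT1 and RASSF5 are listed with 2 starts each. Both strands were searched for AP-1 (TGANTCA), CRE (TGACGTCA), NF-kappaB (GGGNNTTCC) and the CArG box bound by SRF. The motifs do not overlap each other in these promoters. The 3 promoters with a match are shown over the 250 bases before the start, 5′ to 3′ on the gene's strand, with the matched bases in capitals.
ABL2, chr1:179143077-179143326, minus strand: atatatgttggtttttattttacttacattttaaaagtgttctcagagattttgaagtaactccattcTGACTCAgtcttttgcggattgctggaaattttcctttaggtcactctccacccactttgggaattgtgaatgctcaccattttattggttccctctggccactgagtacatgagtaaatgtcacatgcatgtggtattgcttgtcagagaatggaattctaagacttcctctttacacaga
RASSF5, chr1:206507281-206507530, plus strand: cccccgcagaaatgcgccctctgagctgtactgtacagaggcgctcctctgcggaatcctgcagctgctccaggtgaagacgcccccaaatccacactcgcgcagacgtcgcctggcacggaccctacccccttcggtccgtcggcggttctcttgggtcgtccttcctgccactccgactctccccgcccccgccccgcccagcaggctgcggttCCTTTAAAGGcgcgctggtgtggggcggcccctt
RASSF5, chr1:206556914-206557163, plus strand: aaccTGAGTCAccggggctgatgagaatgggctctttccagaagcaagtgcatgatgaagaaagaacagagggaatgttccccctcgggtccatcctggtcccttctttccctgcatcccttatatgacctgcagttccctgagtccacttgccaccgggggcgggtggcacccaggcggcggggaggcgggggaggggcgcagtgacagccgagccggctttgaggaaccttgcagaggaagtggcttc
The ABL2 promoter searched belongs to its listed start and held an AP-1 match that begins 182 bases before it. By number alone, this stretch falls inside the span of the ABL2 probe set, 179068462 to 179198819 on the minus strand in the authors' table. That table names no genome build and the coordinates were not converted, so this position is not settled. The promoter at the upstream end of that span was not searched. RASSF5 held a CArG box 34 bases before its upstream start and an AP-1 match 246 bases before its downstream start. AP-1 matches were in 2 of the 8 promoters and in 7.71% of all 35116 promoters of that length, and CArG boxes in 1 of 8 and in 1.29%. None of the 8 promoters searched had the CRE letters (1.85% of all) or the NF-kappaB letters (6.58% of all) in this window. Which start was used in these cells was not measured. Nothing is read from the counts of matches, since the genes were chosen on this same contrast. A part of these matches in the differences was not tested.

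Of the small GTPases themselves, GEM differed most. GEM encodes a GTPase of the RGK group, induced early after cell activation and known to inhibit voltage-gated calcium channels and signalling by the ROCK kinases. Its probe set lies on the minus strand of chromosome 8, from 95261481 to 95274578 in the authors' table, which names no genome build. The signals were 6.79, 6.93 and 6.64 in control replicates 1 to 3 and 10.31, 10.17 and 10.11 in M1 replicates 1 to 3. The groups were 3.18 apart at their nearest samples, which is 10.8 times the wider of the 2 within-group ranges. The means were 6.79 ± 0.15 and 10.20 ± 0.10 (SD, n = 3 each), a difference of 3.41 ± 0.09 (SE). This was the 5th largest rise of the 22119 probe sets.

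ARL14, an Arf-like GTPase that has been linked to the movement of MHC class II vesicles in dendritic cells, had the next largest difference of the 8. The authors' table places it on chromosome 3 (plus strand, 160394948 to 160396236). Signals were 6.12, 6.39 and 6.49 in the control samples and 9.73, 9.23 and 9.53 in the M1 samples. M1 replicate 2 was the lowest of its group and control replicate 1 the lowest of the other, and the groups stayed 2.74 apart. ARL14 had the widest spread of the 8 in both groups, the SD being 0.19 over the control samples and 0.25 over the M1 samples (n = 3 each). Its difference was 3.16 ± 0.15 (SE), or 8.97-fold, the 11th largest rise. GEM exceeded ARL14 by 0.25 ± 0.17 (SE) on the log2 scale, so the order of these 2 is not resolved by their errors.

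RIT1 encodes a Ras-related GTPase that lacks the lipid attachment signal of the classical Ras proteins and feeds into MAP kinase signalling. It lies on the minus strand of chromosome 1, from 155867599 to 155881195 in the authors' table. The control signals were 9.08, 9.17 and 9.11, and the M1 signals were 9.90, 9.87 and 9.79. The difference was small, 0.74 ± 0.06 (SE), yet the groups were separated by 0.62, or 5.98 times the wider within-group range. In rank it was 570th of all probe sets, and 302 of the 570 probe sets with a rise at least as large are in the authors' table. RIT1 stood near the edge of that table: its SAM score of 1.04 in the authors' deposited table was the 3rd lowest among the higher probe sets, after PLAU and TBC1D25 at 1.03. Probe sets just outside the edge carry no gene name here.

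Proteins that bind active GTPases were between these extremes. RASSF5, also called NORE1 or RAPL, binds active Ras and Rap and connects them to Mst kinases and, in lymphocytes, to integrin adhesion; its CArG box and AP-1 match are marked in the sequences above. Its signals were 8.07, 8.01 and 8.13 in control and 9.14, 9.19 and 9.20 with M1 protein. The 3 M1 samples agree within a range of 0.061, and the difference was 1.11 ± 0.06 (SE), or 2.15-fold. The authors' table places it on chromosome 1 (plus strand, 206680879 to 206762616).

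RHPN2, rhophilin 2, is a binding partner of an active GTPase and is thought to act as a scaffold around it. Its signals were 8.74, 8.67 and 8.67 in control and 10.21, 10.36 and 10.21 with M1 protein, with M1 replicate 2 the highest. The difference of 1.57 ± 0.07 (SE) was a 2.96-fold rise in mean signal, and the nearest samples of the groups were 1.47 apart. The RHPN2 probe set is on the minus strand of chromosome 19, from 33469498 to 33555824.

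RAPH1, better known as lamellipodin, binds active Ras-type GTPases and membrane lipids and brings Ena/VASP proteins to the leading edge of migrating cells. Its signals were 8.97, 9.15 and 9.07 in control and 10.26, 10.30 and 10.18 with M1 protein, with no overlap. The difference was 1.18 ± 0.07 (SE), or 2.27-fold. RAPH1 and RASSF5 differed from each other by only 0.07 ± 0.09 (SE). The RAPH1 probe set is on the minus strand of chromosome 2, from 204259068 to 204400133.

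The Abl arm held a kinase and its partner, with unequal differences. ABL2, also called Arg, is a non-receptor tyrosine kinase that binds actin filaments directly. The sequence before its listed start, with an AP-1 match, is given above. Its signals were 9.23, 9.31 and 9.41 in control and 11.54, 11.51 and 11.55 with M1 protein. The 3 M1 samples lay within 0.036 of each other, the tightest group of all 8 genes, while the control samples spanned 0.17. The difference was 2.22 ± 0.06 (SE), or 4.65-fold, the 52nd largest rise, and the gap between the groups was 12.3 times the wider range. ABL2 lies on the minus strand of chromosome 1, from 179068462 to 179198819 in the authors' table.

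ABI1, the Abl interactor that is a core subunit of the WAVE complex and a substrate of Abl kinases, was higher by much less. Signals were 10.76, 10.80 and 10.85 in control and 11.53, 11.51 and 11.58 with M1 protein, so the groups were 0.66 apart. The difference was 0.74 ± 0.06 (SE), or 1.67-fold, and its SAM score of 1.06 in the authors' deposited table was the 7th lowest among the higher probe sets. ABI1 and RIT1 differed from each other by 0.0011 ± 0.082 (SE). The probe set is on the minus strand of chromosome 10, from 27035522 to 27150016.

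**Figure D2:**
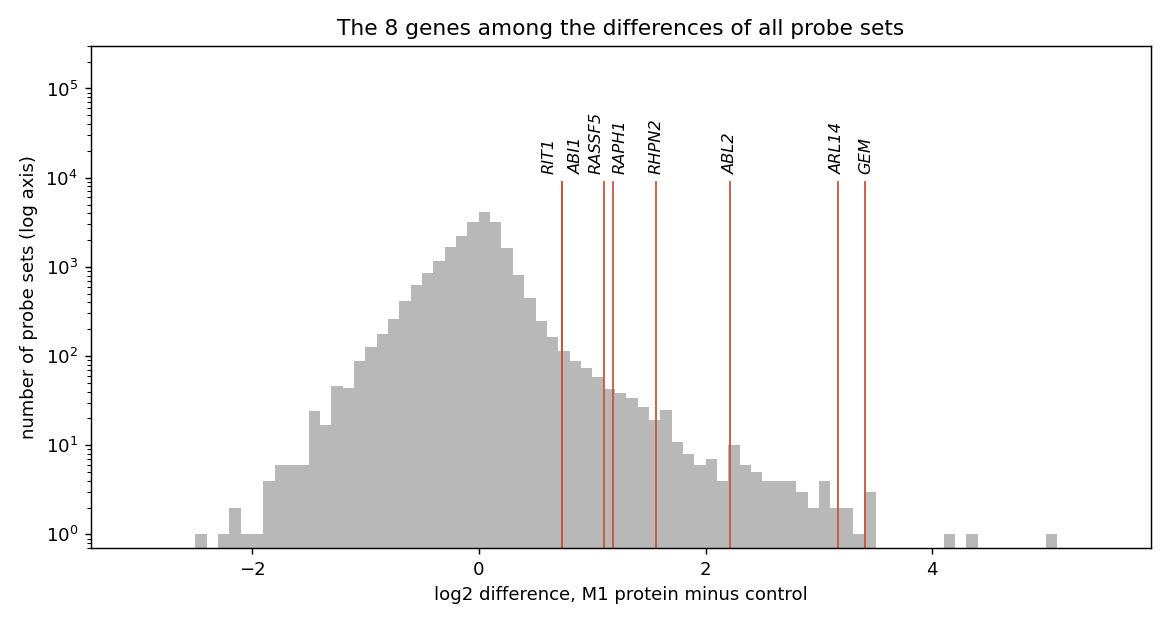
Number of probe sets (log axis) by log2 difference between M1 and control samples, over all 22119 probe sets, with a red line at the difference of each of the 8 genes. GEM (3.41) and ARL14 (3.16) lie in the sparse upper tail, and RIT1 and ABI1 (0.74 each, their lines on top of each other) on the upper shoulder of the bulk.

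In order of difference the 8 genes formed 5 groups, set apart by gaps wider than their errors: GEM with ARL14, then ABL2, RHPN2, RAPH1 with RASSF5, and ABI1 with RIT1. ARL14 exceeded ABL2 by 0.95 ± 0.16 (SE), ABL2 exceeded RHPN2 by 0.65 ± 0.09, and RHPN2 exceeded RAPH1 by 0.39 ± 0.10. RASSF5 exceeded ABI1 by 0.37 ± 0.08 (SE). These SE values treat the genes as independent, although they were measured on the same arrays. The 3 GTPase genes took both the top and the bottom of the order. No array was high throughout: M1 replicates 1, 2 and 3 gave the highest M1 signal in 3, 2 and 3 of the genes. Control replicate 1 gave the lowest control signal in 5 of the 8. The within-group SD was below the median of all probe sets, 0.10, for 6 of the 8, and above it for GEM (0.13) and ARL14 (0.22).

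The medians of all probe sets lay between 6.99 and 7.01 on the control arrays and between 6.93 and 6.96 on the M1 arrays. In none of the 8 genes did any sample lie below the 25th percentile of its array (5.71 to 5.79). The authors' annotation marks 0 of 497 probe sets as cross-hybridising. Of keratinocyte markers, 2 of 9 (KRT17 and LAMB3) are named in the authors' table, with mean control signals of 8.12 and 11.8. Both were higher with M1 protein too, KRT17 2.15-fold and LAMB3 1.68-fold, and their part in the differences of the 8 genes was not tested. The table names 0 of 19 markers of fibroblasts, leukocytes, endothelium and melanocytes. The other markers were not analysed here, because gene names come only with the listed probe sets.

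The authors' annotation gave the 8 genes few terms in common beyond broad ones. Small GTPase mediated signal transduction was attached to GEM, ARL14 and RIT1, and to 7 genes of the table in all, of which 6 were higher. Lamellipodium and filopodium, the sheet-like and finger-like actin protrusions of migrating cells, were each attached to RAPH1 and ABI1 and to no other gene of the table. Cytoskeleton was attached to RAPH1, ABI1 and ABL2, and to 21 genes of the table, of which 9 were higher. Calmodulin binding was attached to GEM and RIT1 among 3 genes of the table, all higher.

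Few genes of the pathway lists were named in the authors' table. Of 214 other genes in 6 lists of small GTPases, their regulators and actin proteins, 2 were in it, and both passed the limma test, 1 higher and 1 lower. The background as deposited was 11.6% of all probe sets higher and 21.2% lower, a split that depends on the scaling as given above, and these 2 had been chosen by the authors on the same samples. Of 20 genes of the Rac and Cdc42 family, RND3 and RHOU were listed and went opposite ways. RND3, an atypical GTPase that does not hydrolyse GTP and inhibits the kinase ROCK1, had signals of 9.16, 9.34 and 9.33 in control and 10.88, 10.93 and 10.74 with M1 protein. Its difference was 1.57 ± 0.08 (SE), or 2.98-fold. RHOU, a Cdc42-like GTPase, had signals of 7.46, 7.61 and 7.55 in control and 6.65, 6.60 and 6.45 with M1 protein, and fell by 0.97 ± 0.08 (SE) on the log2 scale. No M1 sample of either gene overlapped the control samples.

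The table named 0 of 29 Ras, Ral, Rap and RGK genes, 0 of 44 Ras and Rap regulators and RASSF genes, and, for Rac and Cdc42, 0 of 45 regulators and effectors. It also named 0 of 36 genes of the Abl, WAVE, Arp2/3 and Ena/VASP network and 0 of 40 actin, actin-binding and SRF genes. ABI1, ABL2 and RAPH1 thus had no partner from that list in the table. A gene that is not listed may still have differed, because 6748 of the 7245 called probe sets are without a gene name here. The lists were also not complete, since TRIP10, an effector of Cdc42, is in the table but was on none of them.

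A wider look took the genes of the authors' table with an annotation term on GTPases, on Ras or Rac proteins and their relatives, on actin, or on lamellipodia and filopodia. It gave the 23 genes reported here, 5 of them members, and this rule was chosen after the data were seen. Of the 18 others, 11 were higher and 7 lower, or 61.1% higher, beside 61% of the whole table, with a median difference of 0.80. TRIP10, a membrane-bending effector of Cdc42 that was on none of the lists, was higher by 0.83 ± 0.06 (SE). SH2D3A, an adaptor protein also on none of them, was higher by 0.76 ± 0.06 (SE). SCAI, a suppressor of the actin-sensing MRTF cofactors of SRF, was lower, its mean going from 8.66 ± 0.05 (SD, n = 3) to 7.82 ± 0.09 (SD, n = 3). ACTR3B, a form of the Arp3 subunit that was not on the list of that network, was lower as well, at 7.89 ± 0.09 (SD, n = 3) in control and 6.97 ± 0.07 (SD, n = 3) after exposure.

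**Figure D3:**
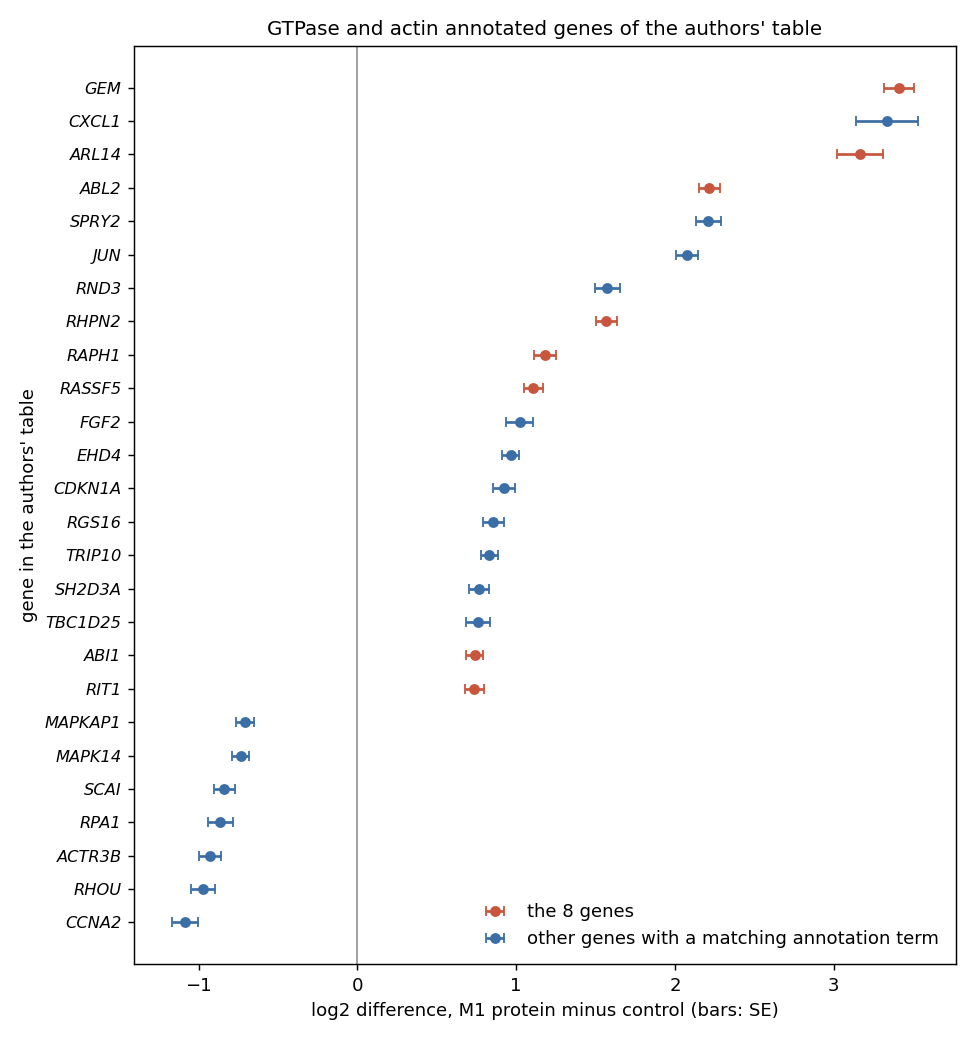
Log2 difference between M1 and control samples, with its SE, for the 8 genes (red) and 18 other genes of the authors' table with a GTPase or actin annotation term (blue). The red points are all to the right of 0, while 7 of the blue points, RHOU, ACTR3B and SCAI among them, are to the left.

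Each of the 8 genes was also matched to the other named genes with the nearest values, by the root-mean-square distance over the 6 samples of log2 signals centred on each gene's own control mean. GEM lay nearest to TNFAIP3, an inhibitor of NF-kappaB, at a distance of 0.069, and to the metalloprotease gene ADAMTS1 at 0.16. ARL14 had no close match, with LOC100131774 at 0.13 and the EGF family ligand gene HBEGF at 0.20. ABL2 lay nearest to the histone demethylase gene KDM7A (JHDM1D in the authors' table) at 0.068 and to EREG, another EGF family ligand gene, at 0.077. RHPN2 was matched to ZFP36L2 at 0.051 and ADM at 0.054, and RAPH1 to UAP1 at 0.039 and C11orf68 at 0.052.

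The closest of the matches reported here was between ABI1 and SNAI2, a transcription factor of epithelial migration, at 0.016. It was followed for ABI1 by NFKB2 at 0.027. RASSF5 had the hyaluronan synthase gene HAS3 as its 2nd nearest at 0.034, and RIT1 was matched to KLF4 at 0.029 and BAG1 at 0.037. Among the 8 themselves, RIT1 and ABI1 were 0.058 apart and RASSF5 and RAPH1 0.099 apart. The distance follows mostly the size of the difference, and each gene was compared with 494 others of the authors' selection.

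**Figure D4:**
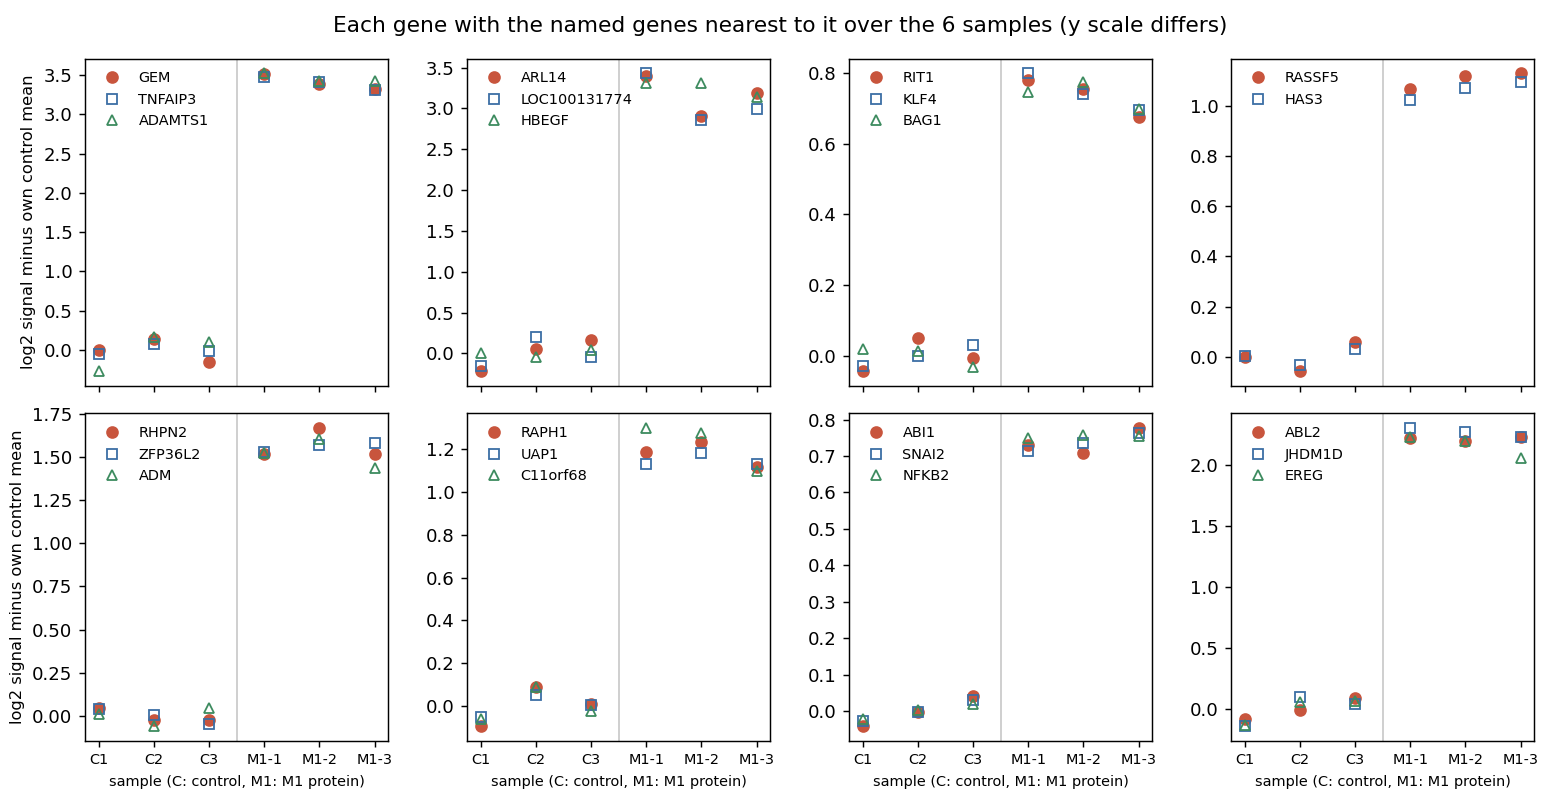
Log2 signal minus the gene's own control mean in the 3 control and 3 M1 samples, for each of the 8 genes (filled circles) and reported genes from the 2 nearest to it (open symbols). The vertical scale differs between panels. The ARL14 panel shows the same dip in M1 replicate 2 for ARL14 and LOC100131774 but not for HBEGF.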

How the data were processed

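The authors deposited log2 signals, with 1 value for each probe set on each array. The submitters' processing notes name RMA and Affymetrix Expression Console 1.1.2. RMA corrects background, scales the arrays to each other and combines the probes of a set, and it tends to compress differences of dim probe sets. The authors' table, whose log2 signals equal the value table within 0.0001, adds a SAM score, a fold change as a ratio of mean unlogged signals and a t-test p-value, per the file headers; the deposited p-values were not used. The genome build and the probe annotation are not given in the sources used here.

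Members were found by the first word of the gene symbol (1 probe set each). Current symbols came from RefSeq GRCh38.p14 through accessions, for 476 of 497 probe sets, and 0 of the 8 genes had a newer one. M1 against control was fitted with limma 3.58.1 (lmFit, eBayes) in R 4.3.3 over 22119 probe sets without a filter, with Benjamini-Hochberg adjusted, two-sided p-values and a threshold of 0.05. The number of arrays limits the precision.

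The members and lists were chosen with earlier results of these data known. Named were the 8 genes, up to 4 called members of each list, the 2 nearest genes of each member (a few results these rules gave are not reported here), and, chosen after their values were seen, TRIP10, SH2D3A, SCAI, ACTR3B, PLAU and TBC1D25. Alternatives were quantile normalization, median centring, leaving out dim probe sets, an intensity trend, array weights, the replicate number as a block, an unequal-variance t-test, unlogged means and each sample left out in turn.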

Additional observations from a re-analysis of the deposited data

How the results depend on the processing

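All 8 genes stayed higher with M1 protein under quantile normalization, median centring, array weights, the replicate block, unlogged means and each sample left out. The value moved by more than the within-group SD in 5 cases: RIT1 was 0.80 after median centring, RASSF5 was 1.21 after quantile normalization and 1.17 after median centring, and ABI1 was 0.68 after quantile normalization and 0.80 after median centring. The order of ABI1 and RIT1 turned with quantile normalization, which gave 0.79 for RIT1. With each sample left out in turn, the difference ranged from 3.34 to 3.48 for GEM, 3.05 to 3.30 for ARL14, 2.17 to 2.26 for ABL2, 1.52 to 1.59 for RHPN2, 1.13 to 1.22 for RAPH1, 1.08 to 1.14 for RASSF5, 0.72 to 0.76 for ABI1 and 0.71 to 0.77 for RIT1. Since the groups do not overlap, leaving out a sample could not turn these signs. Over all probe sets 7245 were called, and 5386 to 6763 without each sample in turn. With Benjamini-Hochberg adjustment, an unequal-variance t-test called 3864, and the cause was not tested. The replicate block called 5821 and left the calls of RND3 and RHOU as they were. It could not change any difference or fold change, since every replicate number is in both groups. Deviations of same-numbered samples correlated at -0.123, -0.118 and -0.00108, which gives no sign of pairing. The mean of several probe sets was not run, because each gene has 1. With 3 arrays a group, neighbours such as ABI1 and RIT1 cannot be ordered.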
